A study of Mus musculus with 4 samples.

Results

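A set of 10 genes that glucocorticoid hormones or FOXO transcription factors are known to regulate, or that carry those signals, were examined in cells sorted from the injured mouse retina. They were Arrdc2, Zbtb16, Fkbp5, Tsc22d3, Sgk1, Nr3c1, Errfi1, Foxo1, Foxo3 and Irs2, taken by name, 10 of the 56493 genes in the deposited count table, and all 10 were among the 19638 genes with enough counts to be tested. Arrdc2 was chosen by its low value in this same comparison, and the other 9 were chosen for their known link to glucocorticoid or FOXO signalling, with results of these data already known. The values of Arrdc2 are therefore given as a description, and the question was whether its low level was shared by the related genes. All animals were labelled wild type (WT). They received an AAV2 vector by injection into the vitreous and had the optic nerve crushed a month afterwards. In 1 group of 2 libraries the vector was AAV2-CrAT, which overexpresses CrAT (carnitine acetyltransferase), and in the control group of 2 libraries it was AAV2-MCS, a name that the labels do not spell out. All 4 titles also carry NCd8, likewise not spelled out. RNA came from retinal cells isolated by fluorescence-activated sorting and labelled RGC (retinal ganglion cells). The sources used here give neither age nor strain, nor the share of sorted cells that took up the vector, and nothing states that the libraries of a group came from separate animals. The p-values below thus measure the spread between these libraries, which may be technical.

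Glucocorticoids enter the cell and bind the glucocorticoid receptor, the product of Nr3c1, which then leaves its chaperone complex in the cytoplasm, moves to the nucleus and binds short palindromic DNA elements near its target genes. FOXO transcription factors are held out of the nucleus when insulin or growth factor signals activate the kinases AKT and SGK1, and enter it when those signals are low. The 2 systems share targets, and in the retina the Mueller glia are a known site of the glucocorticoid receptor.

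The sequences upstream of 3 members are shown because they differ in the receptor's binding element. Entries in the RefSeq promoter table (build GRCm38.p6, 300 bases each, 250 before a transcript's start and 50 after it) matched 8 of the 10 members with 16 entries in all, and Zbtb16 and Nr3c1 did not match. Both strands were searched for the receptor's core sequence AGAACA, for the full element (AGAACA, any 3 bases, then TGTTC, so that each full element also holds the core) and for the FOXO core GTAAACA. The 250 bases before the start are printed 5′ to 3′ in the direction of transcription. Capitals mark the full element in Sgk1 and the core, on the opposite strand, in Tsc22d3. A further core in the Sgk1 sequence, on the opposite strand and upstream of the full element, is left in lower case. Arrdc2 has none of the motifs in this window.

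Sgk1, chr10:21993640-21993889, plus strand: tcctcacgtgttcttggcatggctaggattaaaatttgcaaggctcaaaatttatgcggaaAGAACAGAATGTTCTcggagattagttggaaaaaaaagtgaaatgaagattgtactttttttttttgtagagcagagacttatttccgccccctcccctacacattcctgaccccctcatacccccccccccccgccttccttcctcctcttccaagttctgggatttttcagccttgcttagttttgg

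Arrdc2, chr8:70839721-70839970, minus strand: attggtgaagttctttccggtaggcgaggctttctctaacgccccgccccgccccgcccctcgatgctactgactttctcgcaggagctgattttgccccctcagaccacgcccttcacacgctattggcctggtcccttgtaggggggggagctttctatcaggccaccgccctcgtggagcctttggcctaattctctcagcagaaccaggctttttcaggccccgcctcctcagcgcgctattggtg

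Tsc22d3, chrX:140600523-140600772, minus strand: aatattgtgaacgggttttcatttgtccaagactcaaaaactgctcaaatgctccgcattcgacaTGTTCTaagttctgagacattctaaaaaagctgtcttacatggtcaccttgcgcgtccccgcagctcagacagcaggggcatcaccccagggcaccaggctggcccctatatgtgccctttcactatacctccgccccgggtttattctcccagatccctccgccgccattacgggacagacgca

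The full element of Sgk1, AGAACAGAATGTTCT, has arms, AGAACA and TGTTCT, that are reverse complements of each other, lies at chr10:21993701-21993715 and begins 189 bases before 1 of the gene's start sites. Of all 32851 promoter entries 16, or 0.0487%, held the full element, and it was in 1 of the 16 member entries. The core AGAACA was in 4 of 16 member entries, those of Sgk1 and Tsc22d3, against 19.0% of all entries. The FOXO core was in 0 of 16 member entries against 3.65% of all. A match of letters does not show binding, and its absence from so short a window says nothing about the factor.

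The 4 libraries held 24494253 to 27097438 counts each. Markers of retinal ganglion cells were scarce against the label, with a sum over 12 genes of 158 to 330 CPM (counts scaled to library size), and Pou4f2 and Pou4f3 were too low to be tested. Markers of rods summed to 23023 to 43919 CPM and those of Mueller glia to 14495 to 26652 CPM.

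The members covered a wide range of levels. On the deposited FPKM scale, which divides reads by exon length so that genes can be compared, Sgk1, a kinase induced by steroid hormones, was the most abundant at a mean of 53.0 FPKM over the 4 libraries. Arrdc2 followed at 34.1 FPKM and Tsc22d3 at 27.0 FPKM, then Errfi1 at 16.4 FPKM, Nr3c1 at 7.18 FPKM and Fkbp5 at 6.64 FPKM. Foxo3 (3.48 FPKM), Irs2 (3.05 FPKM), Foxo1 (2.16 FPKM) and Zbtb16 (1.38 FPKM) were the least abundant. The ranges of neighbours in this order overlapped, except between Errfi1, never below 11.9 FPKM, and Nr3c1, never above 10.4 FPKM. The order also differed by group. In both MCS libraries Arrdc2 was above Tsc22d3, at 45.4 and 65.4 FPKM against 32.6 and 41.4 FPKM, and in both CrAT libraries it was below, at 9.62 and 15.9 FPKM against 13.2 and 20.8 FPKM.

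Arrdc2 encodes an alpha-arrestin, an adaptor that brings ubiquitin ligases to membrane proteins, and its transcript is known to respond to glucocorticoids (ENSMUSG00000002910, GRCm38 chr8:70835129-70839720, minus strand). Replicates 1 and 2 held 766 and 1369 counts of it in CrAT, against 3592 and 5727 in MCS. Scaled to library size these were 32.1 and 51.6 CPM in CrAT against 144 and 207 CPM in MCS. Both CrAT values were below both MCS values, and the CrAT mean of 41.9 ± 13.8 CPM was 23.8% of the MCS mean of 176 ± 44.5 CPM (SD, n = 2 each). The log2 fold change, CrAT over MCS, was -2.07 (SE 0.37), lower than in all but 0.942% of the genes tested, and it ranged from -2.44 to -1.77 when each library was left out in turn.

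Among the transcripts known as glucocorticoid targets, Zbtb16 and Tsc22d3 had an arrangement of libraries similar to that of Arrdc2. Errfi1 shared the lower CrAT values without overlap, but in MCS its replicate 1 was above replicate 2. Zbtb16 encodes PLZF, a zinc finger repressor of transcription, and was at 1.80 and 4.19 CPM in CrAT against 8.73 and 14.1 CPM in MCS. It was the least abundant member, with 43 and 111 counts in CrAT and 217 and 390 in MCS. Both CrAT libraries were low and did not overlap with MCS, the CrAT mean being 26.2% of the MCS mean, with a log2 fold change of -1.93 (SE 0.57). Tsc22d3 encodes GILZ, a leucine zipper protein that mediates part of the anti-inflammatory action of glucocorticoids. It was at 59.1 and 91.0 CPM in CrAT against 139 and 176 CPM in MCS, again without overlap, and the CrAT mean was 47.6% of the MCS mean, with a log2 fold change of -1.07 (SE 0.33). Errfi1 encodes MIG6, an inhibitor of the EGF receptor. It was at 44.0 and 51.4 CPM in CrAT against 72.4 and 66.4 CPM in MCS, without overlap, at 68.7% of the MCS mean, with a log2 fold change of -0.54 (SE 0.28). Leaving out 1 library in turn moved these values from -2.64 to -1.45 for Zbtb16, from -1.40 to -0.79 for Tsc22d3 and from -0.64 to -0.43 for Errfi1, with Zbtb16 and Tsc22d3 furthest from 0 without CrAT replicate 2.

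Fkbp5 and Sgk1, which are among the best known targets of the receptor, did not share the low CrAT values. Fkbp5 encodes a co-chaperone that lowers the receptor's affinity for hormone. It was at 45.7 and 75.8 CPM in CrAT against 35.5 and 94.3 CPM in MCS, so that the CrAT libraries lay between those of MCS. Its log2 fold change was -0.095 (SE 0.52). Sgk1 carries the element printed above before 1 of its start sites, and which start is used in these cells was not tested. It was at 310 and 234 CPM in CrAT against 348 and 151 CPM in MCS, with a log2 fold change of 0.12 (SE 0.45). Again the MCS libraries enclosed those of CrAT. In both genes the MCS libraries were further apart than the group means. MCS replicate 2 was 2.66-fold above MCS replicate 1 for Fkbp5, and MCS replicate 1 was 2.31-fold above MCS replicate 2 for Sgk1. The sign of the difference therefore rested on single libraries. Without MCS replicate 2 the log2 fold change of Fkbp5 was 0.78 and that of Sgk1 was -0.35, and without MCS replicate 1 they were -0.63 and 0.85.

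The receptor gene itself, Nr3c1, had similar values in 3 of the 4 libraries. It was at 48.7 and 44.7 CPM in CrAT against 78.8 and 48.3 CPM in MCS. MCS replicate 1 stood above the other 3 libraries, and CrAT replicate 1 overlapped with MCS. The log2 fold change of -0.45 (SE 0.34) was -0.048 without MCS replicate 1.

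The FOXO members differed from each other. Foxo3, a transcription factor of stress resistance and cell survival, was at 11.8 and 15.7 CPM in CrAT against 23.8 and 53.1 CPM in MCS. The groups did not overlap, the CrAT mean was 35.8% of the MCS mean and the log2 fold change was -1.48 (SE 0.47). MCS replicate 2 was the highest library, and without it the value was -0.79. Foxo1, the close relative best known for control of metabolic genes by insulin, was at 20.3 and 11.7 CPM in CrAT against 13.9 and 28.9 CPM in MCS. Its groups overlapped, with the CrAT libraries below MCS replicate 2 and CrAT replicate 1 above MCS replicate 1, and the log2 fold change of -0.42 (SE 0.50) was 0.20 without MCS replicate 2. Irs2, the adaptor of the insulin receptor and a known FOXO target, was at 15.0 and 17.0 CPM in CrAT against 27.9 and 17.0 CPM in MCS. CrAT replicate 2 and MCS replicate 2 were nearly equal, and the log2 fold change of -0.49 (SE 0.39) was -0.082 without MCS replicate 1. Some 7.78% of the exon bases of Foxo1 and 2.56% of those of Irs2 overlap with a gene on the opposite strand. The library kit does not mark strand, so reads there cannot be told apart, but those genes had at most 35 counts in a library.

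**Figure D1:**
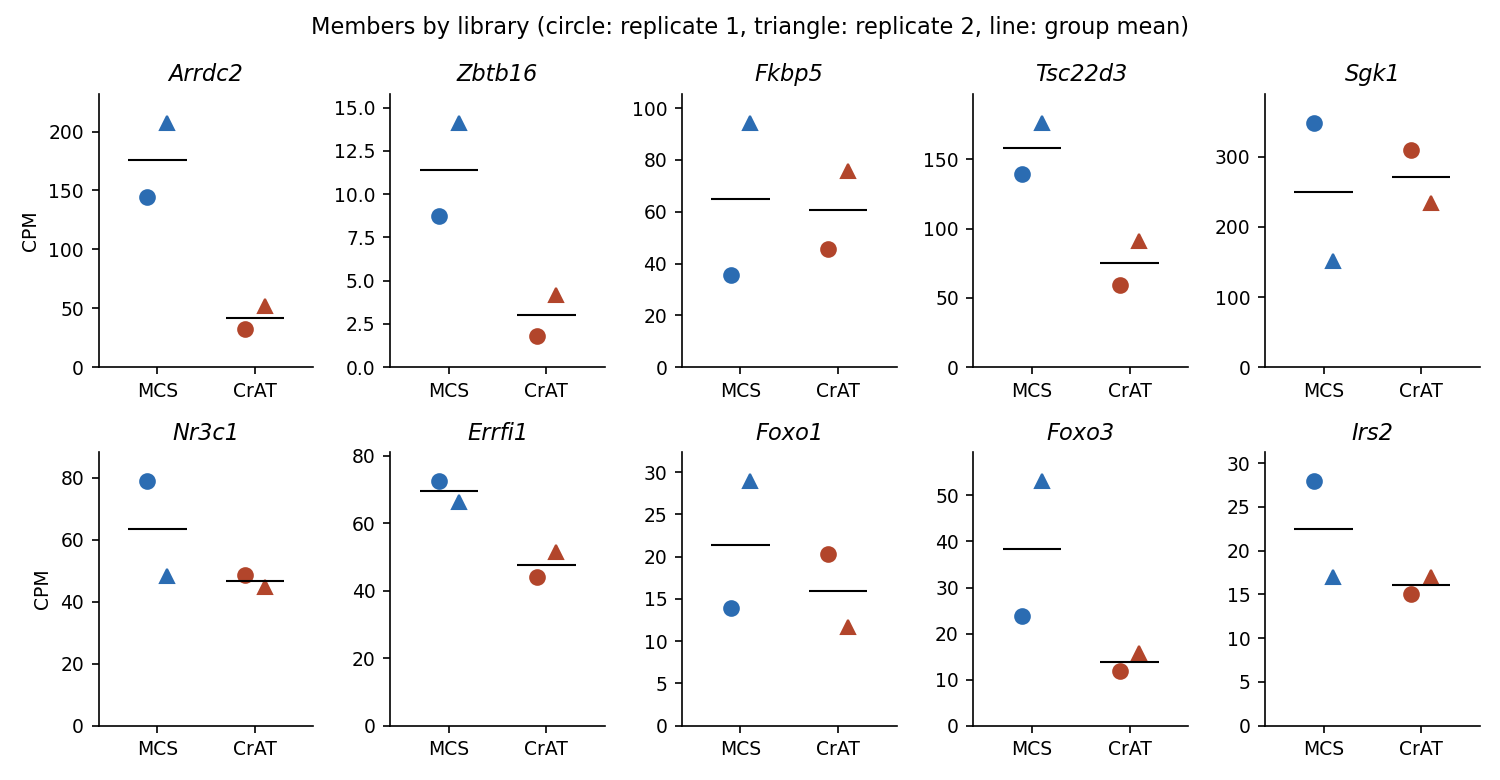
Level of each member (CPM, linear axes from 0, a separate scale per gene) in the 2 MCS libraries (blue) and the 2 CrAT libraries (red), with circles for replicate 1, triangles for replicate 2 and lines for group means. In Arrdc2, Zbtb16, Tsc22d3, Errfi1 and Foxo3 both red points lie below both blue ones, and in Fkbp5 and Sgk1 the blue points enclose the red ones.

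In all, 9 of the 10 members had a negative log2 fold change, with a median of -0.51 beside 0.0075 over all genes tested. In 5 of 10 both CrAT values were below both MCS values, an arrangement found in 16.6% of all genes, and in 0 of 10 they lay above, found in 15.0% of all genes. A log2 fold change of -1 or lower was reached by Arrdc2, Zbtb16, Foxo3 and Tsc22d3, and by 6.16% of all genes. As the members were proposed from this comparison, these counts describe them and support nothing further. None of the 9 members other than Arrdc2 passed an adjusted p of 0.05 over all genes in edgeR's quasi-likelihood test or in DESeq2. Their adjusted p was 1 in edgeR, to 3 decimals, and 0.252 at the lowest in DESeq2, for Zbtb16. Of these 9, Zbtb16, Tsc22d3 and Foxo3 had an unadjusted p under 0.05 in edgeR, each lower in CrAT, as did 2.87% of all genes. Over all genes edgeR called 0 (0% of those tested), with 815 at an unadjusted p under 0.05, and DESeq2 called 55, or 0.28%. Counts were also simulated from the trend of spread with level fitted to these libraries. In them edgeR recovered 3 of 50 genes changed by 2-fold, 25 of 50 changed by 4-fold and 48 of 50 changed by 8-fold. The simulated libraries were independent, with no spread particular to a gene and no replicate effect, so these shares may be too high for the real data. Changes of the size measured in Tsc22d3 or Errfi1 would thus seldom be called with these libraries.

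**Figure D2:**
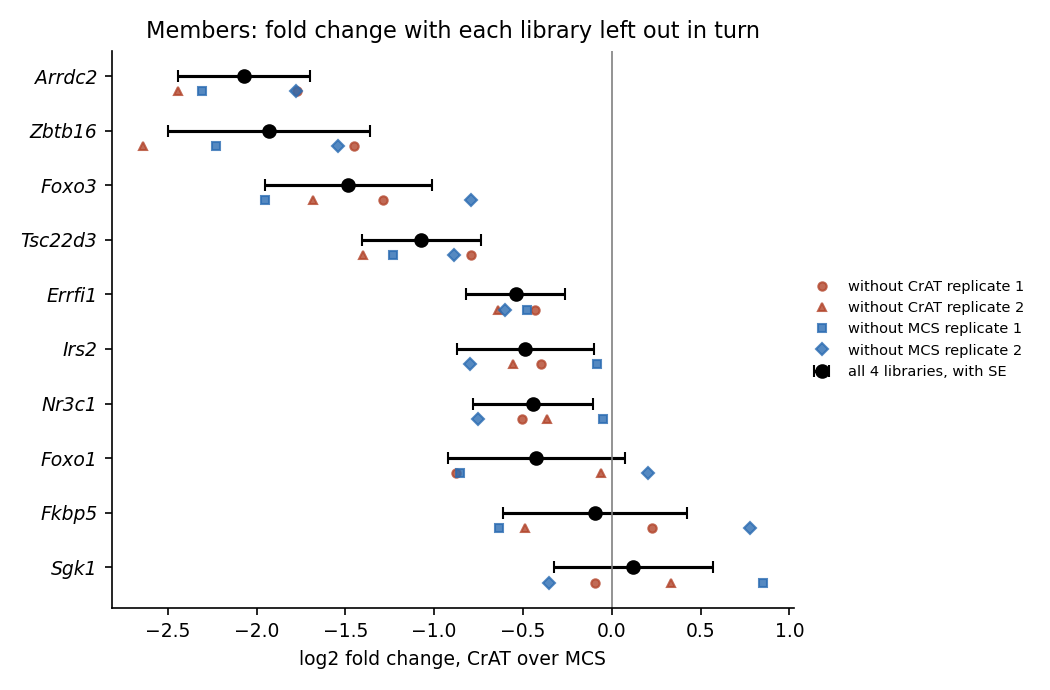
Log2 fold change of each member, CrAT over MCS, from all 4 libraries (black, bars are 1 SE) and with each library left out in turn (coloured symbols below each black point). Arrdc2, Zbtb16, Foxo3, Tsc22d3 and Errfi1 stay below 0 in all 4 leave-outs, while Fkbp5, Sgk1 and Foxo1 have values on both sides of 0.

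Within the groups the members also differed between libraries. Replicate 2 was above replicate 1 in both groups for Arrdc2, Zbtb16, Fkbp5, Tsc22d3 and Foxo3, 5 of 10, an arrangement of 32.6% of all genes. Sgk1 and Nr3c1 had replicate 1 above replicate 2 in both groups, as did 32.7% of all genes. For Arrdc2 replicate 2 was 1.61-fold above replicate 1 in CrAT and 1.44-fold in MCS, and for Zbtb16 2.32-fold and 1.62-fold. These steps were smaller than the 4.20-fold difference of the group means of Arrdc2 and the 3.82-fold difference of Zbtb16. In Tsc22d3 the steps were 1.54-fold in CrAT and 1.27-fold in MCS, beside a 2.10-fold difference of group means. In Foxo3 they were 1.33-fold and 2.22-fold, beside 2.80-fold. In Fkbp5 the steps of 1.66-fold and 2.66-fold were larger than the 1.07-fold difference of group means. Arrdc2 was chosen for its group difference and the other members with results known, so these comparisons are a description only.

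Markers of several cell types also differed in level between the groups, with those of Mueller glia and astrocytes lower in CrAT. Of 20 markers of Mueller glia 19 were tested and none was at 0. All 19 had a negative log2 fold change, as did 49.4% of all genes, with a median of -0.52. In 13 of 19 both CrAT values were below both MCS values, beside 16.6% of all genes. A log2 fold change of -1 or lower was found in 5 of 19, beside 6.16% of all genes. In edgeR 4 of 19 had an unadjusted p under 0.05, all lower in CrAT, beside 2.87% of all genes. Their sum was 18172 and 14495 CPM in CrAT against 26652 and 23813 CPM in MCS, so that the CrAT mean was 64.7% of the MCS mean. Glul, the glutamine synthetase of Mueller cells and itself a known glucocorticoid target in the retina, was at 645 ± 173 CPM in CrAT against 1664 ± 237 CPM in MCS (SD, n = 2 each). The CrAT mean of Glul was 38.8% of its MCS mean. Replicate 1 was above replicate 2 in both groups in 15 of 19 Mueller markers and in 9 of 9 rod markers, beside 32.7% of all genes. Replicate 2 was above in both groups in 0 of 19 Mueller markers, beside 32.6% of all genes. The sum of astrocyte markers was 280 and 236 CPM in CrAT against 441 and 340 CPM in MCS, with 4 of 5 tested markers lower. Endothelial and pericyte markers were mixed, with 4 of 8 lower and 4 higher, a median log2 fold change of 0.0067 and single genes from -1.79 (Flt1) to 1.39 (Pecam1), and their sum was 471 and 374 CPM against 907 and 456 CPM. Markers of neurons of the inner retina leaned the other way. Of the ganglion cell markers 7 of 10 were higher in CrAT, with a median of 0.56. Their sum was 219 and 330 CPM in CrAT against 158 and 237 CPM in MCS, or 139% of MCS. Of the amacrine cell markers 6 of 7 were higher, with a median of 0.40. Their sum was 727 and 2223 CPM in CrAT against 831 and 1494 CPM in MCS, or 127% of MCS. The amacrine sum was thus lowest in CrAT replicate 1, and its higher mean rested on CrAT replicate 2. In both of these lists 0 markers had groups that did not overlap, beside 16.6% of all genes with CrAT below and 15.0% with CrAT above. The part of these cells in the members' values was not tested, and in sorted bulk RNA fewer cells of a type and less RNA of a gene per cell cannot be told apart.

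**Figure D3:**
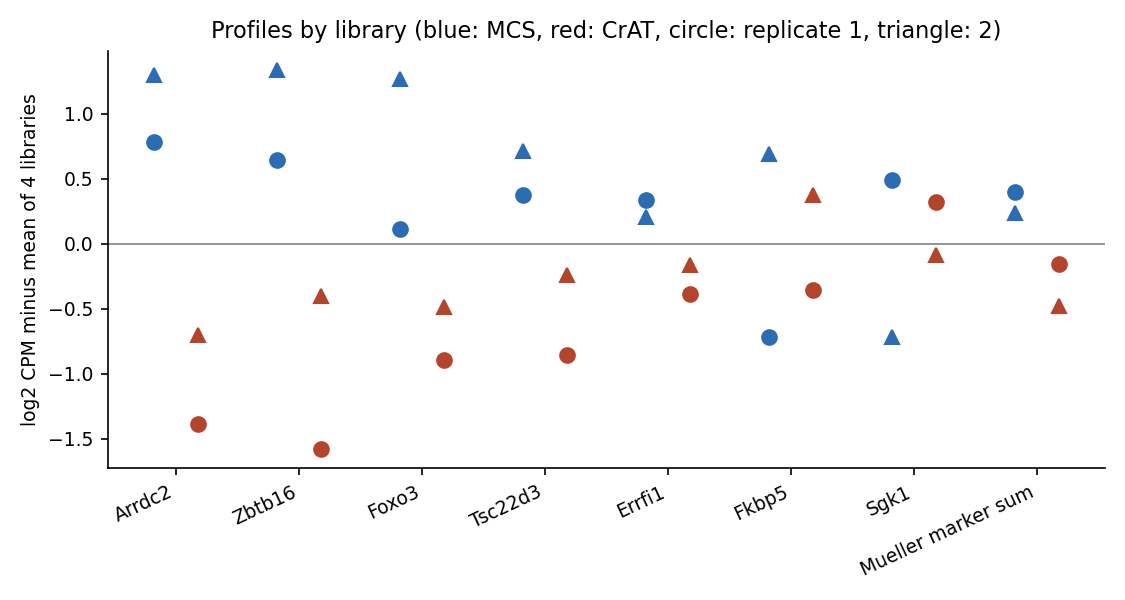
Log2 CPM of 7 members and of the summed Mueller glia markers, minus the mean over the 4 libraries, in MCS (blue) and CrAT (red), with circles for replicate 1 and triangles for replicate 2. In Arrdc2, Zbtb16, Foxo3 and Tsc22d3 the triangle lies above the circle in both groups, and in the Mueller marker sum the circle lies above the triangle in both.

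Beyond the members, most genes of a wider list of glucocorticoid receptor targets had lower values in CrAT. This list and the lists below were drawn from general knowledge, but with earlier results of these data known. Counts over them describe the listed genes and support nothing further. The glucocorticoid list of 35 genes holds 29 that are not members, of which 27 were tested. Of these 25 log2 fold changes were negative and 2 positive, and the median was -0.70 beside 0.0075 over all genes. In 17 of 27 both CrAT values were below both MCS values, beside 16.6% of all genes, and in 0 of 27 above, beside 15.0%. A log2 fold change of -1 or lower was found in 7 of 27, beside 6.16% of all genes. None passed in edgeR (adjusted p of 0.05 over all genes), and DESeq2 called 1, Plin4. In edgeR 9 of 27 had an unadjusted p under 0.05, all lower in CrAT, beside 2.87% of all genes. Counts of lower genes stayed between 21 and 27 of 27 when a library was left out, with 21 without MCS replicate 1, and the median between -0.93 and -0.56.

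Dusp1, a phosphatase that shuts off MAP kinases, was at 251 and 203 CPM in CrAT against 519 and 339 CPM in MCS, with a log2 fold change of -0.92 (SE 0.34). Cebpd, a transcription factor of the acute phase response, was at 215 and 164 CPM against 417 and 275 CPM, with -0.87 (SE 0.34). Klf9, a zinc finger factor induced by the receptor in many tissues, was at 67.5 and 81.7 CPM against 116 and 129 CPM, with -0.71 (SE 0.28). In each of the 3 both CrAT values were below both MCS values. The groups overlapped for Per1, a clock gene that the receptor induces, at 15.7 and 27.7 CPM against 34.7 and 27.2 CPM. The stress gene Ddit4, an inhibitor of mTOR complex 1, had 5.57 and 7.32 CPM against 11.98 and 8.44 CPM, without overlap. The metallothioneins, which bind zinc and are induced by metals as well as by hormone, were Mt1 with a log2 fold change of -0.28 (SE 0.46) and Mt2 with -0.15 (SE 0.47), and Pdk4, a kinase that inhibits pyruvate dehydrogenase, had 18 to 104 counts per library and -0.90 (SE 0.96). In Mt1, Mt2 and Pdk4 the groups overlapped, and the sign turned without CrAT replicate 2 in both metallothioneins and without MCS replicate 1 in Pdk4.

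The 7 genes of the list at -1 or lower and the highest one were named after their values were seen. Hif3a, a hypoxia-related factor, was at 4.40 and 5.21 CPM in CrAT against 23.6 and 10.4 CPM in MCS, with a log2 fold change of -1.83 (SE 0.51) that was -1.12 without MCS replicate 1 and -2.29 without MCS replicate 2. Plin4, a lipid droplet protein, was at 4.65 and 5.47 CPM against 17.9 and 15.4 CPM, with -1.72 (SE 0.39). Its adjusted p was 0.0442 in DESeq2 and 1 in edgeR. The sulfotransferase Sult1a1 had -1.49 (SE 0.43), the cell cycle inhibitor Cdkn1c -1.35 (SE 0.40) and the Kruppel-like factor Klf15 -1.01 (SE 0.31). Angptl4, a secreted inhibitor of lipoprotein lipase, and Cebpb, a transcription factor related to Cebpd, had -1.21 (SE 0.55) and -1.21 (SE 0.85), and Cebpb had 5 to 15 counts per library. Angptl4 was at -1.99 without CrAT replicate 2. In all 7 both CrAT values were below both MCS values. The highest was the acute phase protein Lcn2, at 404 and 640 CPM in CrAT against 579 and 257 CPM in MCS, with 0.32 (SE 0.47).

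**Figure D4:**
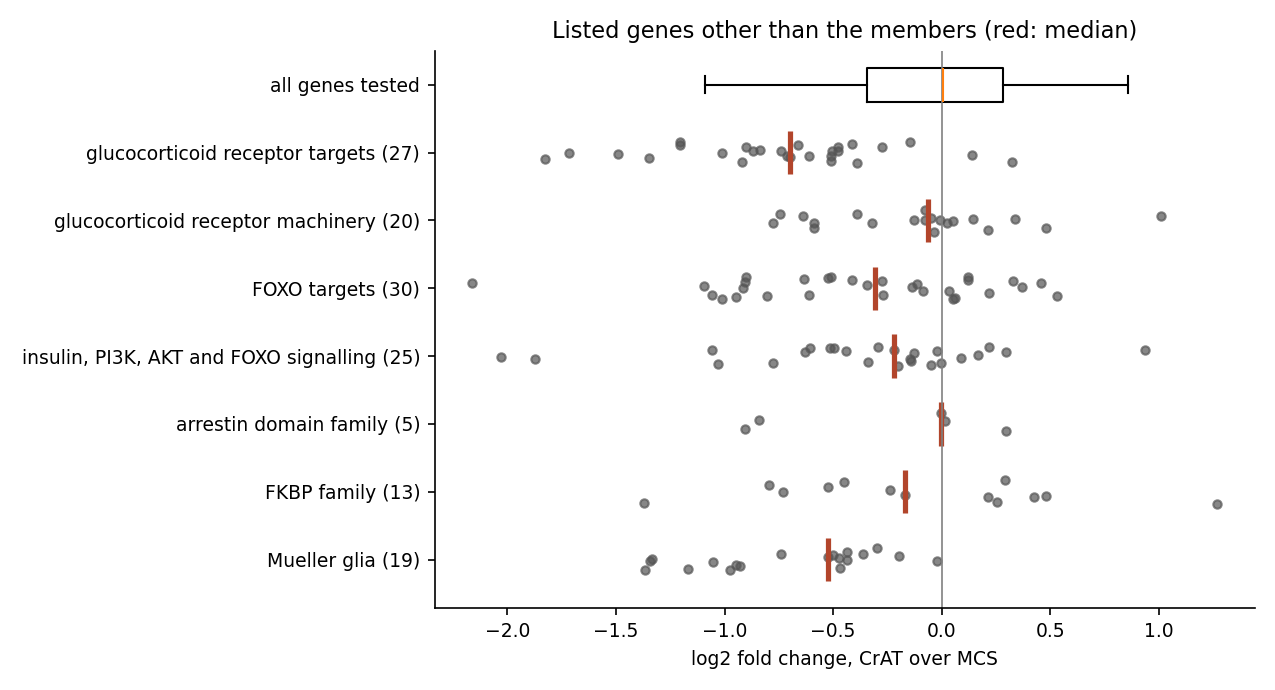
Log2 fold change, CrAT over MCS, of the tested genes of each list other than the members (grey points, number of genes in brackets, red bars are medians). The box shows all genes tested with the median, the 25th and 75th percentiles and whiskers at the 5th and 95th percentiles. Of the glucocorticoid receptor targets 25 of 27 points lie below 0, with a median of -0.70, and the points of the receptor machinery lie on both sides of 0, with a median of -0.061.

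Genes of the machinery around the receptor lay on both sides of 0. Of 20 genes of chaperones, coregulators and hormone metabolism other than the members, all tested, 13 log2 fold changes were negative and 7 positive, and the median was -0.061, and 0 had an unadjusted p under 0.05 in edgeR. Both CrAT values were below both MCS values in 5 of 20 and above in 2 of 20, near the 16.6% and 15.0% of all genes. Fkbp4, the co-chaperone that favours transport of the receptor to the nucleus and so acts against Fkbp5, was at 395 and 466 CPM in CrAT against 282 and 335 CPM in MCS, without overlap, and the log2 fold change was 0.48 (SE 0.30). The chaperone Hsp90ab1 had 0.14 (SE 0.37) and the co-chaperone Ptges3 -0.13 (SE 0.29), both with overlapping groups. Nr3c2, the mineralocorticoid receptor, which binds the same hormones and elements, was at 18.6 and 34.1 CPM in CrAT against 22.2 and 32.2 CPM in MCS, with -0.047 (SE 0.42).

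Among targets of FOXO factors lower values outnumbered higher ones. Of 34 listed genes that are not members 30 were tested, of which 20 log2 fold changes were negative and 10 positive, and the median was -0.31. Both CrAT values were below both MCS values in 12 of 30 (16.6% of all genes) and above in 1 of 30 (15.0% of all genes). None passed in edgeR or DESeq2, and 5 of 30 had an unadjusted p under 0.05 in edgeR, all lower in CrAT (2.87% of all genes). The median was -0.075 at its nearest to 0, without MCS replicate 1, where 17 of 30 were lower. This list shares 5 genes with the glucocorticoid list, 14.3% of that list and 13.2% of this one. Txnip, an alpha-arrestin that blocks glucose uptake and binds thioredoxin, was at 39.1 and 43.7 CPM in CrAT against 79.8 and 75.5 CPM in MCS, without overlap, with a log2 fold change of -0.91 (SE 0.28). Sesn3, a sestrin that restrains mTOR complex 1, was at 25.9 and 29.0 CPM against 46.5 and 70.4 CPM, with -1.09 (SE 0.33). Pik3ip1, an inhibitor of PI3 kinase, had -0.63 (SE 0.28) and Cdkn1b, the cell cycle inhibitor p27, -0.52 (SE 0.35), neither with overlap between the groups. The groups overlapped for Ccng2, a cyclin of resting cells, with -0.14 (SE 0.35).

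In the insulin and PI3 kinase pathway that controls FOXO, Insr and Prr5 were low in CrAT while several adaptors and kinases had overlapping groups. Insr, the insulin receptor and itself a FOXO target, was at 59.7 and 49.4 CPM in CrAT against 106 and 121 CPM in MCS, without overlap, with a log2 fold change of -1.06 (SE 0.28). Irs1, the other main adaptor beside Irs2, was at 28.9 and 24.7 CPM against 32.3 and 21.3 CPM, with -0.0013 (SE 0.35). Akt1, a kinase that phosphorylates FOXO factors, had -0.29 (SE 0.40) and Sgk3, a relative of Sgk1, -0.15 (SE 0.46), both with overlapping groups. Foxo4 had 4 to 29 counts per library and a log2 fold change of -2.03 (SE 0.93), which was -1.27 without MCS replicate 2, and Foxo6, with 8 or 9 counts in each, was too low to be tested. Prr5, named with its values known, is a partner of mTOR complex 2, the kinase complex that activates SGK1 and AKT. It was at 9.97 and 12.2 CPM in CrAT against 41.2 and 40.1 CPM in MCS, a log2 fold change of -1.87 (SE 0.33) with an adjusted p of 1 in edgeR and 0.00153 in DESeq2. Of the 25 tested genes of this list that are not members, 20 had a negative log2 fold change, with a median of -0.22, and 10 had both CrAT libraries below both MCS libraries, beside 16.6% of all genes. None passed in edgeR, and DESeq2 called Prr5 alone. In edgeR 4 of 25 had an unadjusted p under 0.05, all lower in CrAT, beside 2.87% of all genes.

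The relatives of the members had mixed values. Of the alpha-arrestins, Arrdc1 was at 8.08 and 15.3 CPM in CrAT against 20.7 and 21.3 CPM in MCS, without overlap, with a log2 fold change of -0.84 (SE 0.43). Arrdc3, which is also known to respond to FOXO and glucocorticoids, was at 97.6 and 68.5 CPM against 125 and 41.4 CPM, with -0.0024 (SE 0.54). Arrdc4, which like Txnip responds to glucose, was at 10.1 and 8.41 CPM against 7.52 and 7.497 CPM. Both of its CrAT values were above both MCS values, with a log2 fold change of 0.30 (SE 0.39). Among 13 tested FKBP genes other than Fkbp5, 7 had a negative and 6 a positive log2 fold change, and 5 of 13 had both CrAT libraries below and 5 of 13 above both MCS libraries, beside 16.6% and 15.0% of all genes. In the TSC22 family Tsc22d1 was at 295 and 398 CPM in CrAT against 287 and 621 CPM in MCS, with -0.39 (SE 0.44), and Tsc22d4 was not analysed here. Egfr, the receptor that the Errfi1 product inhibits, was at 41.4 and 25.9 CPM against 63.3 and 33.7 CPM, with overlapping groups and -0.53 (SE 0.43). In 8 tested genes of the EGF receptor family and its ligands other than Errfi1 5 log2 fold changes were negative and the median was -0.12, turning to 0.42 without MCS replicate 1 and 0.098 with the replicate number as a block.

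The gene whose pattern over the 4 libraries was most like that of Arrdc2 was another member, Zbtb16. Likeness was the Euclidean distance between log2 CPM values centred on each gene's mean. It was taken over 12432 named genes with a mean of at least 1 log2 CPM. It is a description, since Arrdc2 was picked for this pattern and 4 libraries allow many genes to look alike. The other members, Zbtb16 included, were also chosen with results of these data known. Zbtb16 ranked first, at a distance of 0.386 log2 units, ahead of Usf3 (0.395), Tnxb (0.420), Pan3 (0.465) and Sema6c (0.479). All 5 had low CrAT values, with log2 fold changes from -1.94 to -1.65. Of the other members Foxo3 ranked 43 and Tsc22d3 96 of 12432, and Errfi1 ranked 1153. Irs2 (2405), Nr3c1 (3021), Foxo1 (3522), Fkbp5 (5321) and Sgk1 (10738) were further away.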

How the data were processed

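RNA from 4 libraries of sorted retinal cells was analysed, 2 of AAV2-CrAT and 2 of AAV2-MCS, grouped and numbered by the titles in the labels. Per the labels' protocols, total RNA (Qiagen micro kit) was turned into cDNA libraries by SMART-seq v4, which does not mark the strand. STAR 2.7.2b, GRCm38.p6 and mm10 are listed in the submitters' processing notes. A read counter was not named in those notes as used here, while the deposited counts carry the name featureCount. Per gene, the authors deposited counts, which are estimated counts rounded from fractional values (43.6% to 44.9% of values above 0 were not whole within 0.02), and FPKM, which also divide by exon length. Each table held 2 columns of no listed sample, 4 in all, which were not used. Coordinates in the tables matched GRCm38 for 1402 of 51898 shared genes, so locations printed here come from a GRCm38 annotation by gene identifier.

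Genes were kept with edgeR's filterByExpr (19638) and scaled by TMM, and CPM values are on that scale. Groups were compared by edgeR 4.0.16 (R 4.3.3) with its robust quasi-likelihood test, group being the sole term, and two-sided p-values were adjusted by Benjamini-Hochberg over the genes kept. Plain counts had been planned for, and rounded estimated counts take the same test. SE is the log2 fold change over the root of F. DESeq2 1.42.0, other scalings, no filter, the replicate number as a block and leaving out each library were alternatives. On simulated data of 18998 genes 5 unchanged genes were called. No permutation test of single values is given, as 2 libraries against 2 cannot go below p = 0.333. The members and lists were chosen with earlier results of these data known. Named were all members, a set of listed genes whatever their values, the 5 genes most like Arrdc2, and a few others where stated. Tsc22d4 and Cyr61 were not analysed here, and 1 gene of the insulin list is not reported here. A value of 3 counts corresponds to 0.109 to 0.126 CPM, a limit that covers counting error only, since amplified reads are not independent molecules.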

Additional observations from a re-analysis of the deposited data

How the results depend on the processing

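Counts of lower genes given for the lists under left-out libraries were computed after seeing the data. The number of genes past the threshold was 0 in edgeR, 55 in DESeq2 and 2 with no low-count filter, and 0 under the other alternatives, the replicate block and each left-out library included. None of the 9 members other than Arrdc2 passed under any alternative. The replicate numbers share a correlation of deviations of 0.544 over 14814 genes, but nothing in the labels says that they pair the samples. With the replicate number as a block, Arrdc2 was -2.09 and 8 of 10 members were lower, as Fkbp5 turned to 0.022. In 84 of 90 fits of the members the sign was that of the value reported. The others were Fkbp5 (-0.63 to 0.78 over left-out libraries, 0.22 without CrAT replicate 1), Sgk1 (-0.35 to 0.85, -0.095 without CrAT replicate 1) and Foxo1 (-0.88 to 0.20). Over left-out libraries the sign also turned for Mt1 (-1.02 to 0.23), Mt2 (-1.01 to 0.41), Pdk4 (-1.83 to 0.92), Nr3c2 (-0.53 to 0.33), Hsp90ab1 (-0.17 to 0.55), Ptges3 (-0.31 to 0.088), Arrdc3 (-0.59 to 1.01), Ccng2 (-0.45 to 0.27), Irs1 (-0.27 to 0.33), Akt1 (-0.70 to 0.28), Sgk3 (-0.56 to 0.45), Tsc22d1 (-0.84 to 0.27) and Lcn2 (-0.14 to 1.03). Arrdc3 was 0.0074 with DESeq2, 0.0075 with its size factors, 0.011 with no filter and 0.18 with the block, and Irs1 0.0085, 0.0085, 0.011 and 0.024. The cause was not tested. The scalings moved the median of all genes by less than 0.1. With 2 libraries a group, the simulation recovered 25 of 50 differences of 4-fold.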
